A study of Mus musculus with 9 samples.

Results

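The genes described here encode the proteins of the cytosolic ribosome of the mouse. They were chosen by name from the 54532 genes of the count table: Rpl or Rps followed by a number and at most a short letter ending, plus Rpsa, Rplp0, Rplp1 and Rplp2. The rule gave 86 genes, of which 50 belong to the large subunit, 33 to the small subunit and 3 to the stalk. It left out 298 names that carry the pseudogene ending -ps and 10 Rps6k kinases. Among the 86 are 10 paralogs or retrotransposed copies, and the other 76 name the standard proteins of both subunits.

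The cytosolic ribosome reads messenger RNA and joins amino acids into protein. Its small subunit decodes the message, and its large subunit holds the centre where the peptide bond forms. The proteins are needed in near-equal numbers, and liver, which secretes most of the plasma proteins, carries many ribosomes. The mRNAs of these genes typically begin with an unbroken run of pyrimidines, the TOP motif, through which the kinase complex mTORC1 and the protein LARP1 control their translation.

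The 9 libraries were made from liver of male C57BL/6 mice, in 3 groups of 3: young, old control and old Fabp4 shRNA. The young mice were 8 weeks old, and no injection is described for them. All old mice were kept to 20 months and had received adeno-associated virus at 14 months, through the tail vein and directly into subcutaneous fat. The control virus, AAV9-shRNA-Neg, carried a negative short hairpin RNA, and AAV9-shRNA-Fabp4 carried one against Fabp4, a fatty acid carrier of adipocytes and macrophages. The labels count 15 mice per group, and which cells took up the virus is not stated. Age and virus go together in every comparison with young mice and cannot be told apart there. The labels number the libraries without stating that each is 1 mouse, so that p-values measure only the spread between these libraries.

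Values by library are given in a fixed order. The young come first (replicate 1, the unnumbered library, replicate 5), then old control (replicates 1, 2 and 5), then old Fabp4 shRNA (replicates 1, 3 and 6). One young column carries a name that matches the group but no listed mouse, and it is called the unnumbered young library.

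The targeted gene did not separate the 2 old groups. Fabp4 stood at 3.40, 64.8 and 2.67 CPM (counts scaled to library size) in the young, 7.21, 13.6 and 10.9 in old control, and 11.2, 3.81 and 7.58 in the libraries labelled old Fabp4 shRNA. The old groups overlapped, and the fold change was -0.49 ± 1.16 (log2, SE; adjusted p = 0.960, edgeR quasi-likelihood test). The total was between 14243344 and 17125440 counts per library, and 14025 genes had enough counts to be tested.

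Hepatocyte markers were abundant in all 9 libraries. Summed over 7 genes they stood at 108812 to 170575 CPM in the young and 89578 to 140002 in old control. In old Fabp4 shRNA they stood at 71816 to 94123 CPM, below each young library. The unnumbered young library also held 3644 CPM of 8 skeletal muscle markers, against 82.7 in old Fabp4 shRNA replicate 3 and at most 2.51 in the other libraries. Kupffer cell markers (8 genes) summed to 666 CPM in old control replicate 1 and to at most 263 elsewhere. Red blood cell markers (8 genes) summed to 542 to 1057 CPM in the young, 198 to 346 in old control and 183 to 380 in old Fabp4 shRNA. Neutrophil markers (8 genes) summed to 12.05 to 28.5 CPM in the young, 18.6 to 62.0 in old control and 5.57 to 15.6 in old Fabp4 shRNA. Bile duct markers (5 genes) summed to 64.5 to 158 CPM in old control and 21.9 to 41.2 in old Fabp4 shRNA. In bulk tissue, fewer cells of a type and less RNA per cell cannot be told apart. The part of these other cells in the ribosomal protein values was not tested, except where a value without the library is given.

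Start-site sequences were found for 64 of the 86 genes in RefSeq's promoter table (GRCm38.p6). They are shown first because the TOP motif is a known mark of this gene family. Each line gives 40 bases before and 15 bases from the RefSeq start, 5′ to 3′ on the gene's strand. Capitals mark the longest run of C and T that lies between 10 bases before the start and 15 bases after it. The first 6 genes carry long runs, and the last 5 are 4 paralogs and Rpl41, whose runs are shorter within that window. A run that goes on beyond the window, as in Rpl7a and Rps27l, is marked and counted only inside it.
Rpl27a: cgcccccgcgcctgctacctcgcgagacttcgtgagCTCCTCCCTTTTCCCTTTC
Rpl35: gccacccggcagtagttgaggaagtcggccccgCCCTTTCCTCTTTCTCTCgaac
Rpl15: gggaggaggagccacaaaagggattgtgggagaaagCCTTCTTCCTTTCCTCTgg
Rpl7a: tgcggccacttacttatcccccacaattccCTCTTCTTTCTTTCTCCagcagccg
Rpl38: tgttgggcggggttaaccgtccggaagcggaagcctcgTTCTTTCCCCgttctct
Rps27: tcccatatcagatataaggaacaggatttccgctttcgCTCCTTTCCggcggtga
Rps27l: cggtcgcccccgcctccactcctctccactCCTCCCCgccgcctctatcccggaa
Rps27rt: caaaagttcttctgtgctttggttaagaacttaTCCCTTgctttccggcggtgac
Rpl3l: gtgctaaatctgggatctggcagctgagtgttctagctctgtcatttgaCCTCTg
Rpl10l: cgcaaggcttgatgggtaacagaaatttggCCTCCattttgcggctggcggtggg
Rpl41: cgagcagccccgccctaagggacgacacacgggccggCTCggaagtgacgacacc

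These windows lie at chr7:109519155-109519209 (Rpl27a, plus strand), chr2:39005117-39005171 (Rpl35, minus), chr14:18270972-18271026 (Rpl15, minus), chr2:26910767-26910821 (Rpl7a, plus) and chr11:114668540-114668594 (Rpl38, plus). The Rps27 family windows lie at chr3:90213634-90213688 (Rps27, minus), chr9:66946046-66946100 (Rps27l, plus) and chr9:114982725-114982779 (Rps27rt, minus). Those of Rpl3l, Rpl10l and Rpl41 lie at chr17:24727786-24727840 (plus), chr12:66284387-66284441 (minus) and chr10:128549154-128549208 (minus).

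Within the window the longest run was 19 bases in Rpl27a, 18 in Rpl35, and 17 in Rpl15 and Rpl7a. A run of at least 8 pyrimidines in this window was present in 20 of the 64 genes (31.25%), against 9.494% of the 32851 promoters in the table. A run of at least 10 was present in 21.88% of the members and 3.979% of all promoters. The pentamer CTTTC, read on the gene's strand in the same window, was in 23.44% of members and 3.105% of promoters.

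The letters CCGGAAG, an ETS-type motif, were found on either strand of the 300-base promoter, from 250 bases before to 50 after the start, in 24 of 64 members (37.5%) and in 8.858% of all promoters. TATAAA within 50 bases before the start was in 0 of 64 members and 3.504% of promoters. These are matches of letters, not measured binding sites, and a RefSeq start may sit away from the start used in liver. For Rps10, Rps2, Rpl18 and Rps24 it lay 1425, 1947, 2614 and 3553 bases from the annotated gene start.

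The members took 1.80%, 1.93% and 2.21% of all counts in the young libraries, 1.95%, 1.51% and 1.88% in old control, and 2.11%, 1.37% and 2.31% in old Fabp4 shRNA. The group means were 1.98% ± 0.209 in young, 1.78% ± 0.236 in old control and 1.93% ± 0.495 in old Fabp4 shRNA (SD, n = 3). The groups overlapped in this share. Mitochondrial transcripts took between 4.15% and 14.5% of the counts, which enters the total. Of the counts without them, the members took 2.09%, 2.08% and 2.50% in the young and 2.04%, 1.70% and 2.20% in old control. In old Fabp4 shRNA they took 2.30%, 1.43% and 2.41%, and the groups still overlapped.

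After TMM scaling, edgeR's trimmed mean of log ratios, the summed level of the members in the deposited counts separated young from old control. It was 21876, 19969 and 24047 CPM in the young, and 17034, 17399 and 18960 CPM in old control, so that each old control library lay below each young one. The libraries labelled old Fabp4 shRNA stood at 18790, 12690 and 20677 CPM and overlapped both other groups. The lowest of the 9 was old Fabp4 shRNA replicate 3.

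The plot of deviations by library shows the members gene by gene. For each gene the mean log2 CPM over the 9 libraries was subtracted, and the median over the 82 tested members was 0.22, 0.12 and 0.34 in the young. It was -0.11, -0.15 and 0.01 in old control, and -0.01, -0.61 and 0.17 in old Fabp4 shRNA. Of the 82 members, 61 had their lowest value of all libraries in old Fabp4 shRNA replicate 3, where 16.9% of the 14025 tested genes had theirs. Young replicate 5 held the highest value for 36 members and young replicate 1 for 20, against 10.9% and 11.8% of all tested genes. Old Fabp4 shRNA replicate 6 held it for 17 members (6.2% of all genes), and the unnumbered young library for 3 (9.77%). The FPKM values under the name of the unnumbered young library came from a different library. With whole reads recovered from them, its median deviation was -0.01, below old control replicate 5 at 0.03. The young and old control medians then overlapped. The members took 1.54% of those reads, against 1.93% of its counts.

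**Figure D1:**
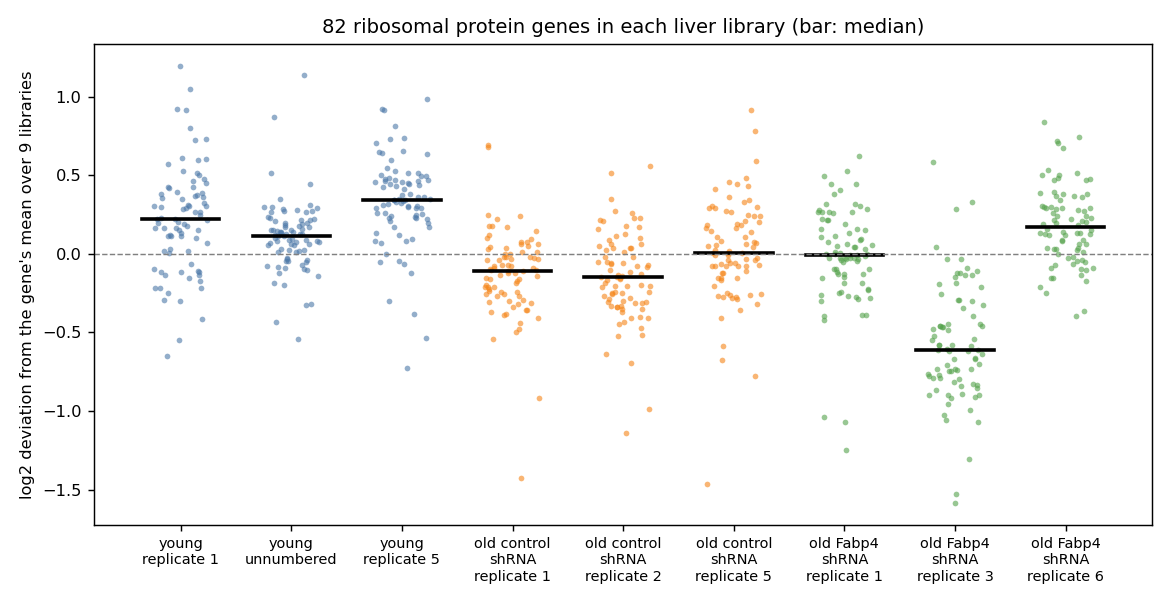
Each point is 1 of the 82 tested ribosomal protein genes, the vertical axis is its log2 CPM minus its mean over the 9 libraries, and the bar is the median of the library. The 3 young medians lie between 0.12 and 0.34, the old control medians between -0.15 and 0.01, and old Fabp4 shRNA replicate 3 stands lowest at -0.61.

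Levels of different genes were compared per kilobase of exon, using the gene length behind the deposited FPKM values. The 82 tested members had a median of 128 CPM per kb, and 75 of them lay between 20 and 600. Rplp1, an acidic protein of the stalk that contacts elongation factors, stood highest at 813 ± 201 CPM per kb (SD over 9 libraries). It was followed by Rpl36 at 575 ± 183, Rps15 at 491 ± 103, Rpl19 at 346 ± 79.8 and Rps27l at 291 ± 68.2. The library ranges of neighbours in this order overlapped. The order depends on the length used. Lengths were also taken from a chosen annotated mRNA of each gene, which need not be the form made in liver. Per kb of that mRNA, Rps18 stood highest at 974, ahead of Rplp1 at 813 and Rpl26 at 722. Rps18, a small subunit protein, had 219 CPM per kb of exon. The 2 other stalk genes were lower on the exon scale, with Rplp0 at 272 ± 43 and Rplp2 at 62.8 ± 18.6 CPM per kb.

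Far below the rest of the family stood 3 standard genes and the paralog Rpl36al. Rpl36al stood at 0.766 ± 0.292, Rps10 at 1.04 ± 0.451, Rpl24 at 1.70 ± 0.793 and Rpl13a at 8.31 ± 2.08 CPM per kb, while the next lowest tested members, the small subunit gene Rps15a and the pseudogene Rps4l, were both at 19.5. In the GENCODE M21 annotation these 4 genes are the members that share over 20% of their exon bases with another gene on the same strand. The shares are 47.0% for Rpl24 (with Gm28037), 29.4% for Rpl13a (with Gm45713), 24.5% for Rpl36al (with Gm49383) and 20.6% for Rps10 (with RPS10-NUDT3). Each of these overlapping genes had 0 counts in all libraries. How reads shared by 2 genes were counted is not given in the sources used here, and the part of this overlap in the low values was not tested.

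**Figure D2:**
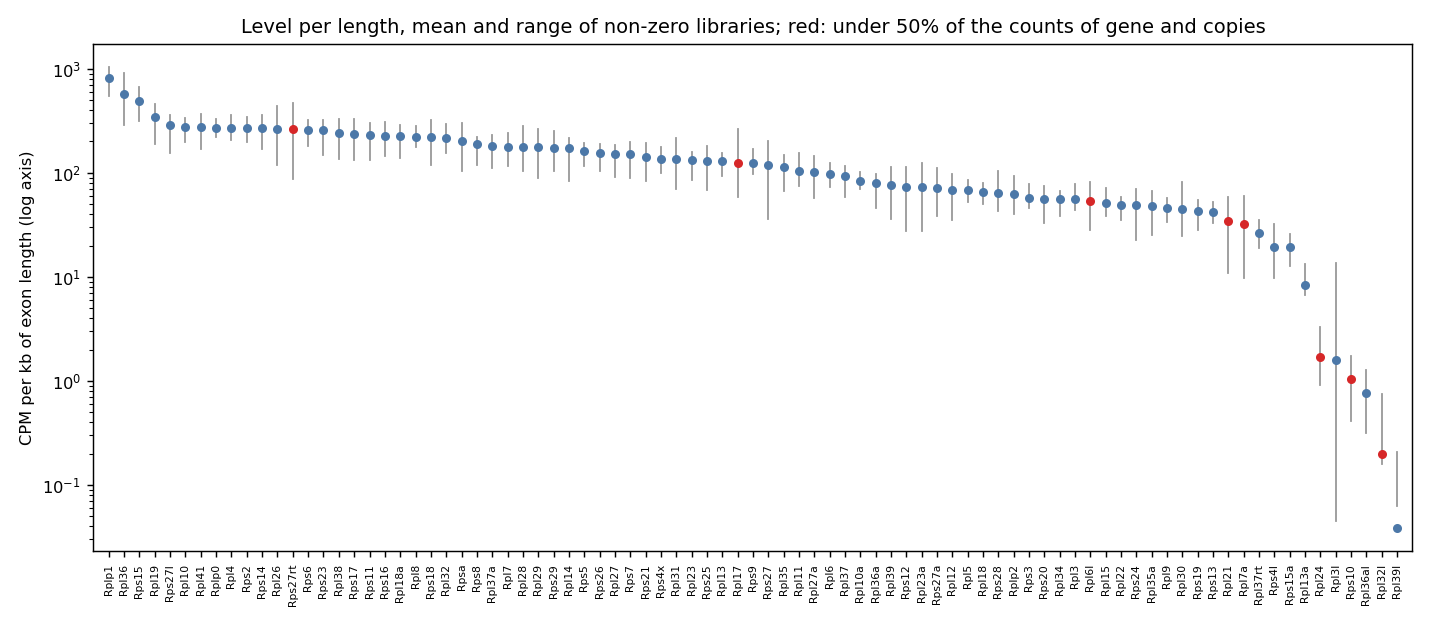
Mean level of each member in CPM per kb of exon on a log axis, with a line from the lowest to the highest library above 0; Rpl10l, with no counts, is left out. Most members lie between 20 and 600 CPM per kb, 4 tested genes stand far below, and red points mark genes that hold under 50% of the counts of gene and copies together.

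Ribosomal protein genes have left many processed copies in the mouse genome, and reads from gene and copy can be exchanged. A copy was counted where an annotated transcript matched at least 90% of a member's coding sequence at 95% identity or more. For members without an annotated coding sequence the whole transcript was matched, so that the measure is not symmetric. The pseudogene Rpl37rt was thus scored without a copy, although it matched the coding sequence of Rpl37 at 99.7%. By this measure 8 members had no copy, 42 had 1 to 5 and 36 had over 5, with 54 for Rpl21, 29 for Rpl7a and 27 for Rpl29. In 8 members the named gene held under 50% of the counts of gene and copies together, and their values are uncertain. Those of Rpl37rt, with 2825 counts beside 22071 for Rpl37, are uncertain as well.

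Rps10, a protein of the small subunit head, had the lowest share among the tested members. It had 359 counts over the 9 libraries, while its copy Rps10-ps2 had 6044, so that the named gene held 4.96% of the family. Rpl17 held 25.9% beside Rpl17-ps3 with 20527 counts, and Rpl24 held 27.7%. Rpl21 held 41.1% beside BC004004 with 14395 counts, and Rpl7a held 42.1%. The other members under this bound were Rps27rt, Rpl6l and Rpl32l.

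Rps27 and Rps27rt differed in opposite directions within old control. Rps27, a zinc-finger protein of the small subunit, stood at 151, 105 and 176 CPM in the young, 134, 69.6 and 212 in old control, and 136, 37.6 and 105 in old Fabp4 shRNA. Its retrotransposed copy Rps27rt stood at 108, 112 and 174 CPM, then 32.7, 126 and 51.3, then 79.1, 72.0 and 125. Within old control, the library that was lowest for Rps27 was highest for Rps27rt. In the young both genes were highest in replicate 5, and in old Fabp4 shRNA both were lowest in replicate 3. The sum of both was 260, 217 and 350 CPM in the young, 167, 195 and 264 in old control, and 215, 110 and 230 in old Fabp4 shRNA.

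**Figure D3:**
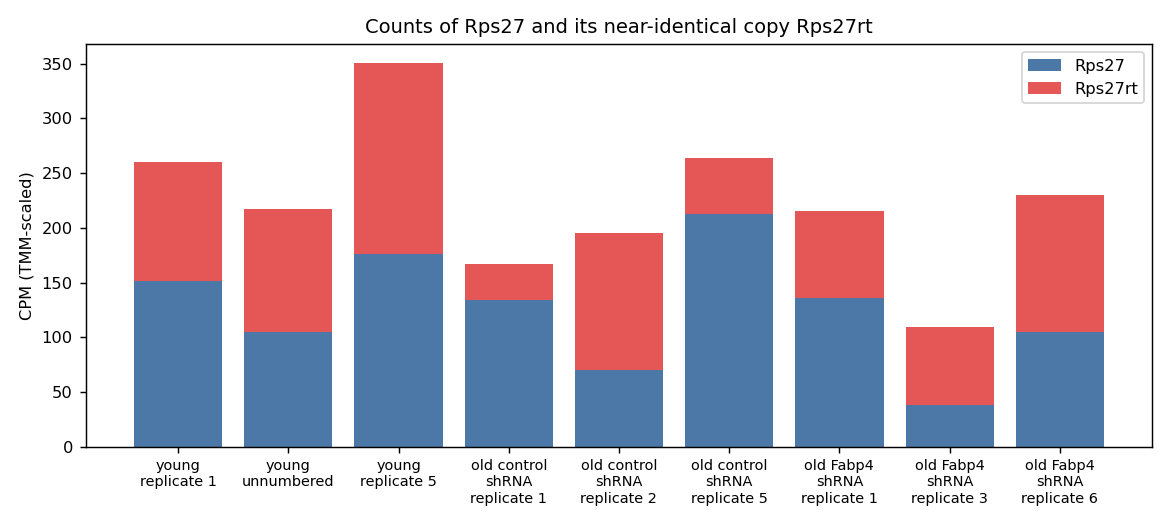
Stacked bars give the CPM of Rps27 (blue) and Rps27rt (red) in each library. The split between the 2 genes varies more within old control than the sum, which runs from 167 to 264 CPM there.

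The comparison of old control with young mice asks how the liver differs with age, with the virus injection included. No ribosomal protein gene was called: 0 of 82 passed an adjusted p of 0.05 in edgeR's quasi-likelihood test, where 0.0357% of all 14025 tested genes (5 genes) did. DESeq2 called 0 members as well, where it called 109 genes higher and 59 lower among the 14025 tested. At an unadjusted p under 0.05, 4 members were lower and 0 higher, where 4.07% of all genes were lower and 6.42% higher. The lower share was near the background. The lowest adjusted p among the members was 0.378.

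The direction was nearly uniform. The fold change was negative for 80 of 82 members, against 48.9% of all genes, and the median was -0.28 (log2), against 0.01 over all genes. In 22 of 82 members each old control library lay below each young library, where 8.26% of all genes did so. No member had all old control libraries above the young, where 8.89% of all genes did. Without the unnumbered young library, which held muscle transcripts, 41 of 82 members lay below, against 15.3% of all genes. The median was then -0.39. With reads recovered from its FPKM column, 77 of 82 were negative (median -0.25). Without young replicate 5, 70 of 82 were negative (median -0.23), and without old control replicate 1, 72 (median -0.28). Members shared their high and low libraries, so that they are not separate observations. The SD of their median deviation over replicates, pooled over the 3 groups, was 0.25.

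Markers of other cells moved between these groups as well. Stellate cell markers (8 genes) summed to 172 to 232 CPM in the young and 305 to 475 in old control, and B and plasma cell markers (8 genes) to 103 to 111 against 236 to 609. Bile duct markers (5 genes) summed to 53.9 to 57.4 CPM against 64.5 to 158, and endothelial markers (8 genes) to 90.03 to 124.6 against 124.7 to 249.3. None of these pairs of ranges overlapped, although the endothelial ranges nearly met. Their part in the members' values was not tested.

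The large subunit had a median of -0.31 over 46 tested members, the small subunit -0.27 over 33 and the stalk -0.34 over 3. Of the large subunit, 13 of 46 had groups that did not overlap, and of the small subunit 8 of 33. Rpl8, a core protein close to the peptidyl transferase centre with no near-identical copy, stood at 309, 358 and 344 CPM in the young and at 246, 238 and 245 CPM in old control. The groups did not overlap, and the fold change was -0.47 ± 0.21 (log2, SE; unadjusted p = 0.0461, adjusted p = 0.468, edgeR). Rpl8 was named after its values were seen.

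Rpl41, a very short basic peptide of the large subunit, stood at 315, 361 and 355 CPM in the young and 302, 199 and 206 in old control. All 3 old control values lay below the young, with a fold change of -0.55 ± 0.24 (log2, SE; adjusted p = 0.467, edgeR). Rpl36, a large subunit protein and the second highest per kb of exon, stood at 347, 230 and 291 CPM against 219, 154 and 206, again without overlap (-0.58 ± 0.29). The stalk protein Rplp1 stood at 481, 484 and 511 CPM against 445, 276 and 328 (-0.49 ± 0.27), also without overlap.

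The most negative fold changes were those of Rpl7a, Rps27rt, Rpl23a and Rps4l, and the first 2 of these are among the members with uncertain counts. Rpl7a, a large subunit protein whose introns host small nucleolar RNAs (chr2:26910764-26913318), stood at 91.2, 106 and 67.9 CPM in the young and 77.6, 24.3 and 17.4 in old control. The groups overlapped through old control replicate 1, and the fold change was -1.15 ± 0.54 (log2, SE; adjusted p = 0.495, edgeR). With its 29 copies added, the level was 211, 193 and 132 CPM against 163, 76.3 and 92.4 CPM.

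Rps27rt followed at -0.91 ± 0.44, then Rpl23a at -0.79 ± 0.49 and Rps4l at -0.79 ± 0.28 (log2, SE). Rpl23a, which sits at the exit of the peptide tunnel, stood at 105, 101 and 38.2 CPM against 64.5, 41.8 and 34.6. Its groups overlapped because young replicate 5 was low. Of its exon bases, 59.7% are shared with Tlcd1 on the opposite strand, and the strand setting of the counting is not given in the sources used here. Rps4l, annotated as a pseudogene, stood at 30.5, 19.3 and 24.7 CPM against 9.24, 14.1 and 19.9, with 19.9 just above the lowest young value.

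At the other end, Rps10 had a fold change of 0.51 ± 0.48 and Rpl36al of 0.34 ± 0.55, both at a few CPM or less. They were followed by Rps7 at -0.02 ± 0.26 and Rps27 at -0.06 ± 0.48 (log2, SE). When the counts of copies were added to each member, an alternative chosen after seeing the data, Rps10 stood at -0.57. The median over the members was then -0.29, and 81 of 82 were negative.

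**Figure D4:**
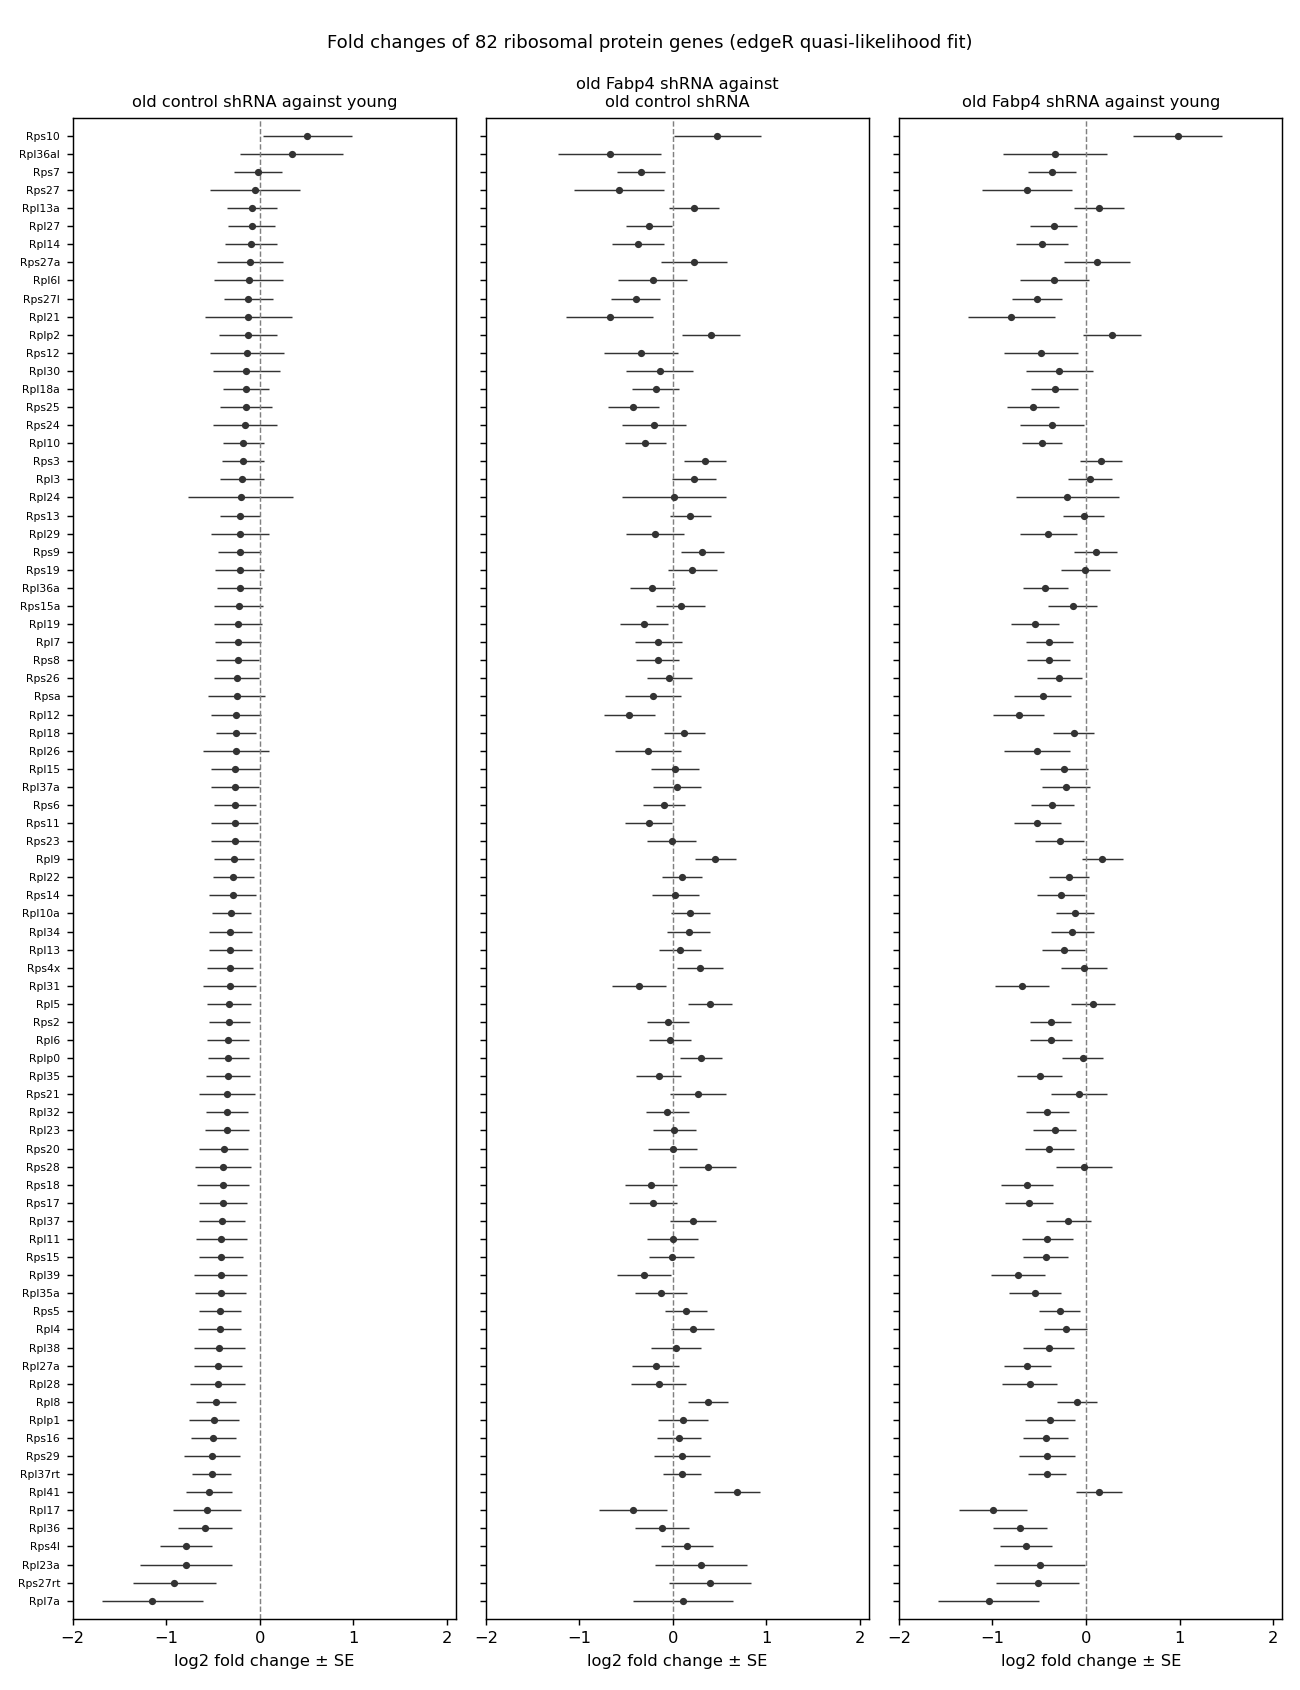
Log2 fold change with its standard error for each of the 82 tested members in the 3 comparisons, ordered by old control against young. In the left panel 80 of 82 points lie below 0, in the middle panel 42 of 82, and in the right panel 72 of 82; no point passed the adjusted test.

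The comparison of the libraries labelled old Fabp4 shRNA with old control asks what the hairpin against Fabp4 does in old mice. It uses the same old control libraries as the comparison of old control with young, so that the fold changes are not independent. Low old control values lower the fold change there and raise it here. No member was called in edgeR (0 of 82, where 0.0% of all genes were called). DESeq2 also called 0 members, where it called 1 gene higher and 6 lower among the 14025 tested. At an unadjusted p under 0.05, 1 member was higher and 0 lower, where 3.27% of all genes were higher and 3.48% lower. The median fold change was -0.00 (log2), against -0.01 over all genes. Of the members 40 were positive and 42 negative, where 51.4% of all genes were negative. The large subunit had a median of -0.05, the small subunit -0.00 and the stalk 0.30.

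The 1 member at an unadjusted p under 0.05 was Rpl41. Its level was 302, 199 and 206 CPM in old control and 421, 286 and 428 CPM in old Fabp4 shRNA, and the groups overlapped by 1 library. Its fold change was 0.68 ± 0.25 (log2, SE; adjusted p = 0.728, edgeR). In old Fabp4 shRNA against young it was 0.14 ± 0.24.

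In 3 members each old Fabp4 shRNA library lay above each old control library, where 6.02% of all genes did. They were Rpl8 (307, 257 and 383 CPM against 246, 238 and 245), Rpl9 and Rps3. Rpl9, a large subunit protein, stood at 170, 134 and 177 CPM against 125, 104 and 123 (0.45 ± 0.22, log2). Rps3, which lines the mRNA entry channel, stood at 247, 259 and 349 CPM against 226, 243 and 206 (0.34 ± 0.22). In 1 member, Rpl12 at the base of the stalk, each library lay below, where 5.67% of all genes did, at 209, 127 and 216 CPM against 222, 217 and 323 (-0.47 ± 0.27). Rps10 (0.47 ± 0.46) and the stalk protein Rplp2 (0.40 ± 0.31) were the other large positive values.

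On the negative side stood Rpl36al (-0.67 ± 0.55), Rpl21 (-0.67 ± 0.47) and Rps27 (-0.58 ± 0.48). Rpl21, the member with the most copies, stood at 128, 36.8 and 80.8 CPM against 75.3, 157 and 160. With its copies the level was 276, 195 and 279 CPM against 230, 330 and 309.

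The balance of signs rested on single libraries. Without old Fabp4 shRNA replicate 3 the median was 0.15 with 63 of 82 positive, and without old Fabp4 shRNA replicate 6 it was -0.19 with 60 of 82 negative. Without replicate 3, 24 of 82 members had both remaining libraries above all old control libraries, against 10.2% of all genes, and 1 had both below, against 10.4%. No member was called under either omission, where 0 of all genes were called.

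The libraries labelled old Fabp4 shRNA were also compared with the young. This comparison shares its young libraries with the first and its old Fabp4 shRNA libraries with the second, so that the fold changes are not independent. No member was called in edgeR (0 of 82, where 0.057% of all genes, 8 genes, were called, 0.00713% lower and 0.0499% higher). DESeq2 again called 0 members, where it called 51 genes higher and 73 lower among the 14025 tested. At an unadjusted p under 0.05, 9 members were lower and 0 higher, where 4.5% of all genes were lower and 4.43% higher. The median was -0.37 (log2), against 0.02 over all genes, with 72 of 82 negative, against 47.8% of all genes.

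In 12 members each old Fabp4 shRNA library lay below each young library, where 6.67% of all genes did, and in 1 member, Rps10, each lay above, where 6.79% did. The most negative values were those of Rpl7a (-1.04 ± 0.54), Rpl17 (-0.99 ± 0.37), Rpl21 (-0.80 ± 0.47) and Rpl39 (-0.73 ± 0.29). Rpl17, another protein of the tunnel exit, stood at 204, 71.3 and 127 CPM in the young and 81.3, 45.8 and 74.9 in old Fabp4 shRNA. Rpl39, a small protein in the wall of the tunnel, stood at 143, 115 and 163 CPM against 87.3, 51.5 and 115, so that old Fabp4 shRNA replicate 6 met the lowest young library.

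The most positive were Rps10 (0.98 ± 0.48), Rplp2 (0.28 ± 0.31), Rpl9 (0.18 ± 0.22) and Rps3 (0.16 ± 0.22). Rps10 stood at 1.63, 1.98 and 1.30 CPM in the young and 2.44, 3.31 and 3.97 in old Fabp4 shRNA. With its copies added the fold change was -0.25.

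Without old Fabp4 shRNA replicate 3 the median was -0.16, with 59 of 82 negative. At an unadjusted p under 0.05 that fit had 1 member higher and 0 lower, where 350 of 14384 genes were higher and 375 lower. On counts scaled to the library total alone the median of the members was -0.07, and that scaling placed the median of all genes at 0.31. Relative to all genes the members lay lower under both scalings.

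Ribosomal protein mRNAs are short, and mRNA length separated the libraries for other genes too. Each gene's mRNA length was taken from a chosen annotated transcript, which need not be the form made in liver. Members were split into 28 with mRNAs of 345 to 624 bases, 27 of 637 to 946 and 27 of 954 to 5179 bases. In old control against young their medians were -0.35, -0.27 and -0.26 (log2). The 432 other tested genes with mRNAs no longer than the first group had a median of -0.18, and the 620 in the range of the second -0.19. The 9817 in the range of the third had a median of -0.01, and the 2054 with longer mRNAs had 0.15.

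In old Fabp4 shRNA replicate 3 the 3 groups of members deviated by -0.69, -0.49 and -0.60, and the matching groups of other genes by -0.36, -0.38 and -0.01, while the longest deviated by 0.24. Each group of members deviated further down than the other genes of its range. The third range is wide, since the chosen transcripts of Rps15a (5179 bases) and Rps20 (3706 bases) extend it. Whether liver makes these forms was not tested, so that members may be placed in too long a group. The genes within the range were not matched in length. In old Fabp4 shRNA against young the members' medians were -0.41, -0.28 and -0.36, and those of the other genes -0.33, -0.26, 0.02 and 0.18. The part of mRNA length in the members' values was not tested.

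**Figure D5:**
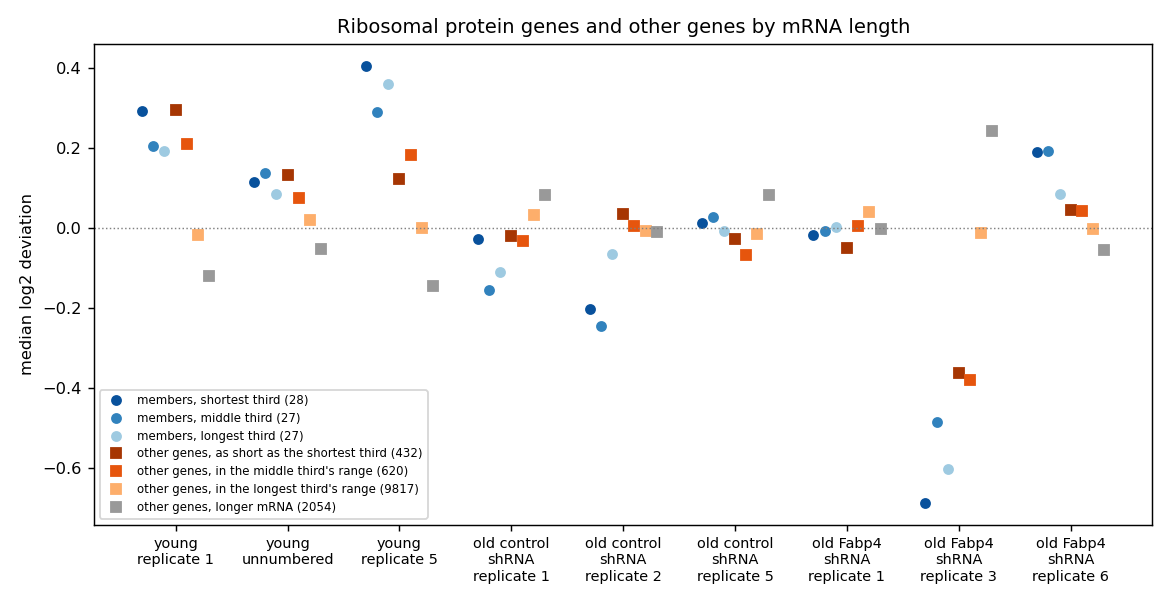
Median log2 deviation from the mean over 9 libraries, for members (circles) and other genes (squares) grouped by mRNA length, with the number of genes in brackets. Short mRNAs of both kinds lie above 0 in the young and below 0 in old Fabp4 shRNA replicate 3, where the members reach -0.69 and other short genes -0.36 to -0.38.

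Fold changes were also set beside the longest pyrimidine run in the window, which need not begin at the start site. In old control against young, 19 tested members with a run of at least 8 pyrimidines had a median of -0.26, and 41 with a shorter run had -0.30. Against the young, old Fabp4 shRNA had medians of -0.36 and -0.34.

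Among the paralogs, Rpl3l, the form of Rpl3 made in striated muscle, stood at 22.2 CPM (347 counts) in the unnumbered young library and between 0 and 0.370 CPM in the other 8. The counts of that library also held the 3644 CPM of muscle markers. In the reads recovered from its FPKM column, Rpl3l stood at 0.085 CPM of the recovered total. Its partner Rpl3 stood at 154 to 205 CPM in the young. Rpl10l, a retrotransposed gene of the male germline, had 0 counts in all 9 libraries, which allows at most 0.157 to 0.229 CPM (3 counts per library). Rpl39l, also known from testis, had 5 counts in all, and Rpl32l had 11. These 4 were the members not tested.

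Rps27l, a close relative of Rps27 that p53 induces, was at 294, 234 and 289 CPM in the young, 191, 276 and 283 in old control, and 237, 127 and 205 in old Fabp4 shRNA. Its groups overlapped in old control against young (-0.12 ± 0.26) and in old Fabp4 shRNA against old control (-0.40 ± 0.26). Rpl37rt, a retrotransposed copy annotated as a pseudogene, stood at 24.6, 26.8 and 22.1 CPM, then 16.9, 15.9 and 18.6, then 20.6, 14.4 and 20.0. Both old groups lay below the young without overlap, with -0.51 ± 0.21 in old control (adjusted p = 0.419, edgeR) and -0.42 ± 0.21 in old Fabp4 shRNA. Reads of Rpl37rt can be exchanged with those of the far more abundant Rpl37, so that these values are uncertain. Rpl37 stood at 171, 174 and 186 CPM in the young, 129, 132 and 140 in old control, and 170, 99.5 and 197 in old Fabp4 shRNA. The sum of Rpl6 and its copy Rpl6l was 430, 405 and 390 CPM in the young, 340, 324 and 325 in old control, and 311, 253 and 385 in old Fabp4 shRNA.

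Of 5 ribosomal protein genes outside the name rule, 5 were negative in old control against young, with a median of -0.32 (log2). Rack1, the scaffold on the small subunit, stood at 341, 352 and 410 CPM in the young and 285, 279 and 310 in old control (-0.34 ± 0.22, log2). Fau, which encodes a ubiquitin-like fusion with a small subunit protein, stood at 306, 286 and 306 CPM against 260, 225 and 228 (-0.34 ± 0.22). In both the groups did not overlap. Rps3a1 had -0.32 ± 0.25, Rpl7l1 -0.15 ± 0.22 and Rpl22l1 -0.04 ± 0.34. In old Fabp4 shRNA against old control 4 of the 5 were positive, with a median of 0.20, and against the young the median was -0.12. None of the 5 was called in any of the 3 comparisons.

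Genes that work with the ribosome had the same direction in old control against young, and none was called. Of 31 translation factors and other TOP mRNAs, 28 were negative with a median of -0.24 (log2). Rack1 and Fau, already described among the genes outside the name rule, are also in this list. Eif3i, a subunit of initiation factor eIF3, stood at 51.6, 65.9 and 68.6 CPM in the young, 44.5, 49.5 and 46.9 in old control and 74.7, 65.1 and 66.0 in old Fabp4 shRNA. The old control libraries lay below all others, with -0.40 ± 0.19 against young and 0.55 ± 0.19 for old Fabp4 shRNA against old control (adjusted p = 0.480 and 0.728, edgeR). Eef1g, a subunit of the elongation factor complex, had -0.50 ± 0.23 and 0.58 ± 0.23, and the eIF3 subunit Eif3b -0.44 ± 0.20 and 0.43 ± 0.20. These genes were named for their p in old control against young. Both fold changes of each use the same old control libraries, so that the opposite signs are not independent. In old Fabp4 shRNA against old control the list's median was 0.16 with 22 of 31 positive.

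Of 45 ribosome biogenesis genes, 38 were negative in old control against young, with a median of -0.21. Grwd1, a chaperone of a ribosomal protein, had -0.76 ± 0.26, Nhp2 of the H/ACA snoRNPs -0.60 ± 0.26 and Pes1, a large subunit assembly factor, -0.48 ± 0.20. Eif6, which keeps free large subunits apart from small ones, stood at 33.2, 33.4 and 25.8 CPM in old control and 48.4, 49.4 and 63.1 in old Fabp4 shRNA. These groups did not overlap, with 0.80 ± 0.23 (log2, SE; adjusted p = 0.728, edgeR). Of 11 tested snoRNA host genes, 10 were negative in old control against young, with a median of -0.25. Snhg6 stood at 17.96, 17.6 and 25.4 CPM in the young and 12.7, 14.5 and 13.8 in old control, without overlap (-0.58 ± 0.24). Snhg8 had -0.41 ± 0.25 and Epb41l4aos -0.41 ± 0.31.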

How the data were processed

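Liver RNA was sequenced in 9 libraries. Reads were aligned with HISAT2 to GRCm38.p6, per the submitters' processing notes. Neither the counting program nor its strand setting and annotation is given in the sources used here. The authors deposited whole read counts per gene and FPKM values. The FPKM served for gene lengths, which equalled GENCODE M21 exon unions for 95.0% of checked genes, and for alternatives. In 1 young column, that of the unnumbered young library, counts and FPKM were from different libraries. The main tests used its counts.

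Genes were filtered with filterByExpr, scaled with TMM and tested with edgeR 4.0.16 (R 4.3.3, robust quasi-likelihood, 9 libraries, 3 groups, 6 residual degrees of freedom, Benjamini-Hochberg over 14025 genes, threshold 0.05), after a test on simulated data. CPM are TMM-scaled. Copies were found with blastn. Alternatives were DESeq2 1.42.0, limma 3.58.1, other scalings and filters, and libraries left out. Floors cover counting error only.

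Members and lists were chosen with earlier results of these data known. Named were Fabp4, the 4 most positive and negative members per comparison, the 5 highest and lowest per length, paralogs, stalk genes, and 3 genes with the smallest p per pathway list in old control against young. For the other comparisons the rule also gave such genes, and only some are named. Rpl8 and other members were added for their counts, copies or sequences.

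The tissue label is liver, although the RNA protocol speaks of NRVMs (commonly neonatal rat ventricular myocytes). Replicate numbers 1 and 5 recur between groups, but the labels do not say that they pair libraries. A gene of the lists is not reported here.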

Additional observations from a re-analysis of the deposited data

How the results depend on the processing

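The count of members called was 0 in each comparison, and under the alternatives it moved only with the replicate block, a fit with 1 residual degree of freedom. There it was 1 in old control against young (Rps27rt, -1.75, adjusted p = 0.00472) and 1 in old Fabp4 shRNA against young (Rpl23a, -2.04, adjusted p = 0.0419, both edgeR). Of all 14025 genes that fit called 111 higher and 47 lower in old control against young. In old Fabp4 shRNA against young it called 15 higher and 8 lower. Same-numbered libraries correlated at 0.11, 0.08, 0.03 and -0.05, and the numbers were not taken to pair the libraries. The replicate block also turned Rps7 (0.12), Rps27l (0.16), Rpl21 (0.61) and Rps10 (-0.49) in old Fabp4 shRNA against old control, and Rpsa (0.0767) in old Fabp4 shRNA against young. On total counts only, the median of the members in old Fabp4 shRNA against young was -0.0717. That scaling placed the median of all genes at 0.16, 0.13 and 0.31 in the 3 comparisons, and the members at -0.14, 0.13 and -0.07. Adding copies turned Rps10 to -0.573 in old control against young and -0.251 in old Fabp4 shRNA against young.

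Fabp4 was negative against young through the unnumbered young library. In old control against young it was 0.155 with limma-voom, 0.980 on log2(FPKM + 1), 1.66 on log2(FPKM + 0.1), 1.54 with the replicate block, 1.84 on recovered reads and 1.76 without that library. For old Fabp4 shRNA against young the values were 0.640, 1.14, 1.96, 1.38 and 1.30 under the last 5 of these. The cause was not tested. Without single libraries, the median of the members ran from -0.39 to -0.23 in old control against young. With 3 libraries per group the error of a single member, typically 0.2 to 0.5 (log2), is as large as most of these differences.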

Other observations

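The mitochondrial ribosome is built from a separate set of nuclear genes. In old control against young, 73 of its 78 tested genes were negative, with a median of -0.35 (log2), and 0 were called in edgeR's quasi-likelihood test, with 9 lower and 0 higher at an unadjusted p under 0.05. Of all genes 48.9% were negative, with 4.07% lower and 6.42% higher at that p. Mrps24 stood at 52.7, 49.9 and 55.7 CPM in the young and 37.6, 34.3 and 31.1 in old control (-0.62 ± 0.18, log2), and Mrpl12 at 38.5, 53.6 and 39.2 CPM against 33.8, 25.9 and 24.6 (-0.64 ± 0.21). Neither pair of groups overlapped. In old Fabp4 shRNA Mrpl12 stood at 45.1, 46.2 and 47.9 CPM, above all old control libraries (0.72 ± 0.21, adjusted p = 0.728, edgeR). Both fold changes of Mrpl12 use the same old control libraries and are not independent. Mrpl42 stood at 51.8, 47.8 and 55.3 CPM in the young and at 28.0, 29.6 and 35.5 in old Fabp4 shRNA (-0.73 ± 0.19, adjusted p = 0.343, edgeR). The median deviation of the mitochondrial ribosomal protein genes was -0.38 in old Fabp4 shRNA replicate 3, where that of the cytosolic members was -0.61.

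Among 25 genes of mTORC1 and the control of translation, 0 were called. Eif4ebp1, a repressor of cap-dependent initiation, stood at 59.9, 63.9 and 42.7 CPM in the young, 35.9, 29.9 and 28.1 in old control and 34.6, 38.3 and 44.4 in old Fabp4 shRNA, with -0.83 ± 0.21 in old control against young (log2, SE; adjusted p = 0.247, edgeR). Eef2k, the kinase that inhibits elongation factor 2, stood at 7.10, 4.15 and 6.79 CPM against 3.20, 1.25 and 1.64 in old control (-1.55 ± 0.47). Ddit4, an inhibitor of mTORC1, stood at 19.4, 36.6 and 1.98 CPM in the young and at 4.53, 3.02 and 2.71 in old control (-2.50 ± 0.78), and the groups overlapped because young replicate 5 was low. Cytosolic tRNA synthetases (20 of 23 found) had medians of -0.15, 0.04 and -0.10 in the 3 comparisons, with 0 called. In old control against young Gars had -0.39 ± 0.19, Hars -0.37 ± 0.20 and Farsa 0.41 ± 0.21.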
